A study of Homo sapiens with 12 samples.

Results

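The 10 genes described here encode enzymes that build purine and pyrimidine nucleotides from small precursors: PPAT, GART, PFAS, PAICS and ATIC of the purine pathway, and CAD, DHODH, UMPS, CTPS1 and TYMS of the pyrimidine pathway. They were taken by gene symbol from the 44659 genes of a table of raw read counts, in which all 10 were present. The RNA came from A375 cells, a human skin melanoma line obtained from ATCC and grown in DMEM with serum and glutamine, in 4 groups of 3 libraries. Control cells (CC) were given DMSO, the solvent, for 72 h. Treated cells (TC) were given MAPKi, a mixture of 500 nM vemurafenib, which inhibits the mutant BRAF kinase, and 500 nM cobimetinib, which inhibits MEK, for 72 h and were harvested at day 0 of recovery, as were the control cells. Persister cells (PC) had the same 72 h of MAPKi followed by 2 days in drug-free medium, and recovered cells (RC) had 9 such days. All 12 libraries came from cytoplasmic RNA depleted of ribosomal RNA. One cell line was used, PC and RC were each harvested as a batch of their own, and the only DMSO cells were harvested at day 0, so the time in culture and the harvest batch cannot be told apart from recovery.

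Library totals ran from 37773389 to 55567097 counts, at which 3 counts correspond to at most 0.0794 CPM (counts scaled by the library total). The levels printed are CPM for which that total was also multiplied by edgeR's TMM factor, and every member was above that floor in every library. No pair of libraries of a group agreed within sampling noise, with chi-square per degree of freedom of 10.8 to 80.6. The labels call the samples triplicates and do not say that they came from separate cultures, so the p-values measure only the spread between these samples, which may be technical. A CPM value is relative to all RNA counted in its library, and in bulk RNA fewer cells that express a gene cannot be told apart from less of its RNA per cell. Of 8 melanocytic genes, 7 or 8 exceeded 1 CPM in every library of each group, among them SOX10. Of that list MLANA, which encodes a melanosome antigen, stayed at or below 1.94 CPM. The summed level of the 8 genes was 1665 to 1893 CPM in CC and 7097 to 10310 CPM in TC. DCT alone made up most of the sum in TC, reading 337 to 444 CPM in CC and 5263 to 7870 in TC. By edgeR's quasi-likelihood test 6 of the 8 were higher in TC, against 33.2% of all genes tested. S100B was lower and MITF was not called. Summed levels of 5 fibroblast genes stayed at or below 42.4 CPM, of 4 epithelial genes at or below 2.66 CPM and of 4 leukocyte genes at or below 1.90 CPM. Of the fibroblast genes 2 or 3 exceeded 1 CPM in every library of each group. They included LUM, at 25.2 to 33.1 CPM in CC, and PDGFRB, at 7.28 to 13.9. The epithelial gene KRT14 exceeded 1 CPM in every PC library.

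Cells make nucleotides either by salvage of ready-made bases and nucleosides or by de novo synthesis from amino acids, bicarbonate and one-carbon units carried by folate. In the purine pathway PPAT commits phosphoribosyl pyrophosphate (PRPP) by transferring to it an amide nitrogen of glutamine, GART (a protein with 3 activities), PFAS and PAICS build up the ring, and ATIC closes it to give inosine monophosphate. In the pyrimidine pathway CAD catalyses the first steps from glutamine and aspartate, DHODH, a protein of the inner mitochondrial membrane, oxidises dihydroorotate, and UMPS makes uridine monophosphate. CTPS1 then makes CTP from UTP, and TYMS makes thymidylate from deoxyuridylate for DNA synthesis. Growth signalling through the MAPK pathway is known to favour nucleotide synthesis in proliferating cells, through MYC and through phosphorylation of CAD among other routes.

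PPAT and PAICS, which encode the first purine enzyme and a later one, lie head to head on chromosome 4, PPAT on the minus strand (chr4:56393362-56435615, 11 exons) and PAICS on the plus strand (chr4:56435741-56464578, 9 exons; GRCh38). The distance depends on the annotation: 644 bases lay between the start sites of the MANE transcripts and 136 between the nearest RefSeq start sites. Between the outermost first exons of the pair in GENCODE lay 125 bases in which no exon was annotated, of which 76% were G or C. This stretch is shown because it separates 2 members whose levels are compared below (chr4:56435616-56435740, GRCh38.p14, minus strand, 5′ to 3′, no motif in capitals).
PPAT to PAICS: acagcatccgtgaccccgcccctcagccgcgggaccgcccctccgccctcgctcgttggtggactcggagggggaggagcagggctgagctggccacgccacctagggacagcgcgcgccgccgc

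The sequences upstream of the members' start sites differed in the motifs they held. RefSeq gave 15 promoter windows for the 10 members, and the 250 bases upstream of each start were searched on both strands. The E-box CACGTG, a sequence that MYC and related factors can bind, was found once each in DHODH, PPAT and ATIC, against 8.11% of 16859 windows of tested genes. The E2F letters TTTCGCGC or TTTGGCGC were found in 1 of the GART windows, against 1.42% of windows. CCAAT was found in 5 of the 15 windows, those of 3 members, CAD, DHODH and GART, a share near the 32.8% of tested windows. Some of the GART windows overlap and hold the same CCAAT sites. The 3 E-box sites are shown with 12 bases on each side and the E-box in capitals (GRCh38.p14, 5′ to 3′ on the strand of the gene). They lie at chr16:72008573-72008602 on the plus strand, chr4:56435780-56435809 on the minus strand and chr2:215312001-215312030 on the plus strand. The E-box began 159 bases upstream of the DHODH start, 182 of the PPAT start and 46 of the ATIC start. In GENCODE these windows overlap first exons of other transcripts, those of DHODH and ATIC themselves and, for PPAT, of PAICS.
DHODH: gccgctactgcgCACGTGcacccaaccaga
PPAT: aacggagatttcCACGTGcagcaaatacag
ATIC: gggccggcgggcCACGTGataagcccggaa

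A letter match is a description of the window and does not show that a factor was bound there.

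All 5 purine enzymes were lower after 72 h of MAPKi, were still lower 2 days after the drug was removed, and were near or above the control level after 9 days. Differences are given as log2 differences with their standard error (SE) from edgeR's quasi-likelihood test over 15916 genes, with Benjamini-Hochberg adjusted p-values. PPAT read 76.4, 75.1 and 82.0 CPM in the control libraries, 22.7, 22.6 and 23.8 in the treated libraries, 25.5, 24.5 and 26.7 in the persister and 83.4, 89.5 and 85.0 in the recovered libraries. Every TC and PC library was below every CC library, and every RC library was above. PPAT was 3.37-fold lower in TC (log2 -1.75, SE 0.06, adjusted p = 3.4e-10) and 3.05-fold lower in PC (log2 -1.61, adjusted p = 5.79e-10). Although the RC and CC libraries did not overlap, the difference did not pass the test (log2 0.14, 95% interval 0.02 to 0.27, adjusted p = 0.0717), and it did when CC replicate 3 was left out (0.19, adjusted p = 0.0176) or with library totals in place of the scaling factors (0.17, adjusted p = 0.0327).

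GART, which carries out 3 steps of ring building (chr21:33503931-33543491, minus strand, 22 exons), read 186, 161 and 228 CPM in the control libraries, 76.0, 70.9 and 74.1 in the treated libraries, 66.1, 77.1 and 73.9 in the persister and 175, 189 and 188 in the recovered libraries. The CC libraries were spread more widely (191 ± 33.9 CPM, SD, n = 3) than those of the other groups, and all exceeded every TC and PC library. GART was 2.60-fold lower in TC (log2 -1.38, SE 0.11, adjusted p = 2.86e-07) and 2.65-fold lower in PC (log2 -1.40, SE 0.11, adjusted p = 2.29e-07). The RC libraries lay within the range of CC, and the difference did not pass the test (log2 -0.06, 95% interval -0.29 to 0.17, adjusted p = 0.695). A numbered copy of GART in the table held 28 to 131 counts per library, against 2524 to 10758 for GART itself.

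PFAS, which adds nitrogen from glutamine to the growing ring (chr17:8247618-8270491, plus strand, 28 exons), read 109, 86.7 and 126 CPM in the control libraries, 32.9, 29.8 and 28.0 in the treated libraries, 26.3, 27.2 and 28.9 in the persister and 90.6, 99.6 and 99.1 in the recovered libraries. It was 3.54-fold lower in TC (log2 -1.82, SE 0.12, adjusted p = 4.41e-08), a difference not separated from that of PPAT, and 3.89-fold lower in PC (log2 -1.96, SE 0.12, adjusted p = 2.4e-08). Every TC and PC library was below every CC library. The RC libraries lay within the range of the CC libraries (log2 -0.15, 95% interval -0.39 to 0.10, adjusted p = 0.323). Without CC replicate 2, the lowest CC library, PFAS was called lower in RC (log2 -0.28, adjusted p = 0.0215).

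PAICS had the highest CPM of the 10 members in every group. It read 412, 455 and 453 CPM in the control libraries, 144, 141 and 158 in the treated libraries, 189, 206 and 219 in the persister and 653, 688 and 675 in the recovered libraries, and no group overlapped another. PAICS was 2.98-fold lower in TC (log2 -1.58, SE 0.07, adjusted p = 2.67e-09), 2.15-fold lower in PC (log2 -1.11, SE 0.07, adjusted p = 4.56e-08) and 1.53-fold higher in RC (log2 0.61, SE 0.07, adjusted p = 7.92e-05). It was the one purine enzyme called higher in RC than in CC.

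ATIC, which catalyses the final pair of steps to inosine monophosphate (chr2:215311956-215349773, plus strand, 16 exons), read 219, 227 and 226 CPM in the control libraries, 96.9, 96.0 and 90.5 in the treated libraries, 88.9, 99.7 and 104 in the persister and 209, 219 and 218 in the recovered libraries. It was 2.37-fold lower in TC (log2 -1.25, SE 0.06, adjusted p = 6.92e-09) and 2.30-fold lower in PC (log2 -1.20, SE 0.06, adjusted p = 9.21e-09), with no overlap with CC. The RC libraries were all below the CC libraries by a margin that did not pass the test (log2 -0.06, 95% interval -0.19 to 0.08, adjusted p = 0.515).

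**Figure D1:**
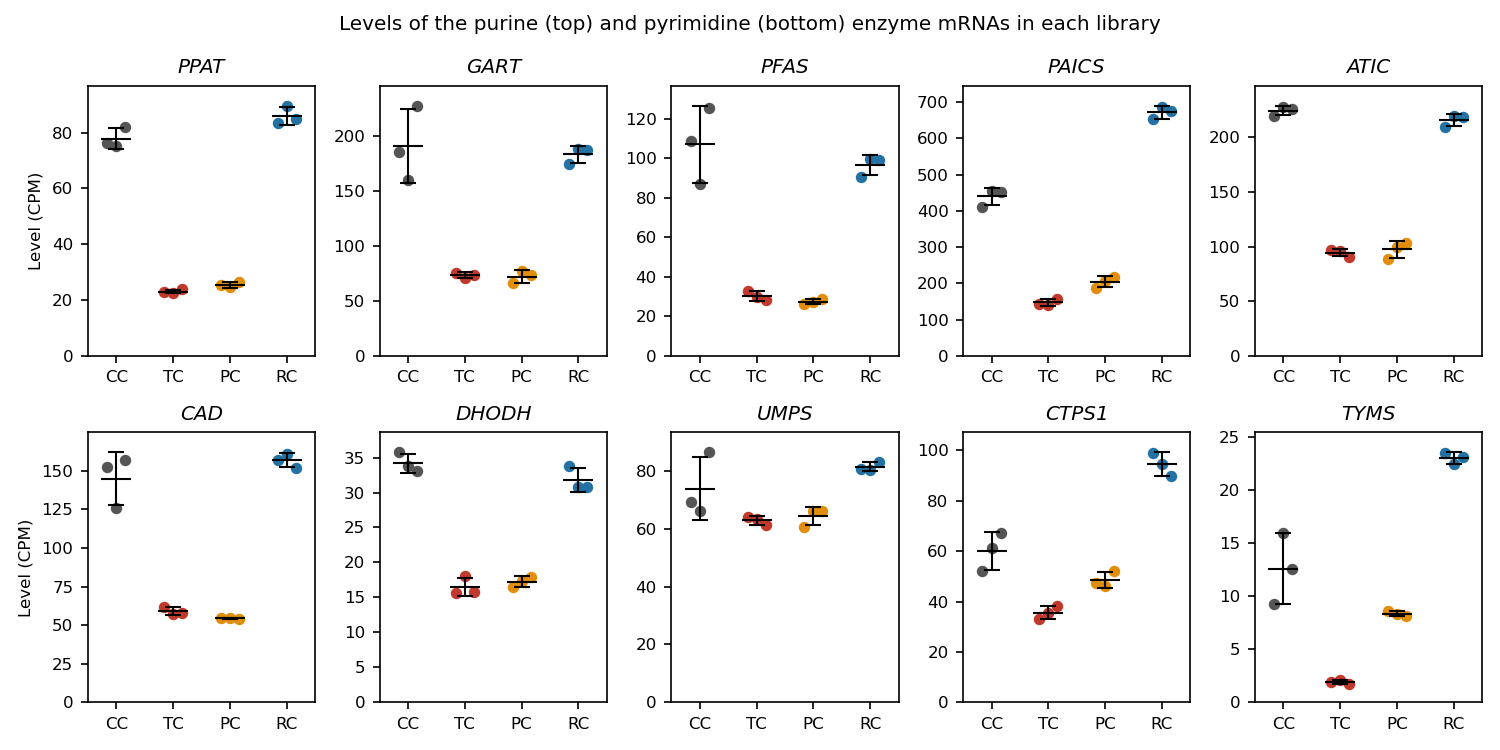
Levels of the 10 enzyme mRNAs in CPM (vertical axes, each from 0) in each library of the 4 groups, purine enzymes above and pyrimidine enzymes below; points are libraries, long bars means and short bars ± 1 SD (n = 3). Most genes are low in TC and PC and near CC in RC, whereas UMPS varies little and TYMS is lowest in TC alone, at 1.77 to 2.07 CPM.

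The pyrimidine enzymes did not share 1 pattern. CAD and DHODH were lower in both TC and PC and not called against CC in RC, UMPS differed little, and CTPS1 and TYMS were lower in TC, nearer to control in PC and above it in RC. CAD (chr2:27217369-27243943, plus strand, 44 exons) read 152, 126 and 157 CPM in the control libraries, 61.9, 57.3 and 58.0 in the treated libraries, 54.9, 54.4 and 54.1 in the persister and 157, 161 and 152 in the recovered libraries. It was 2.45-fold lower in TC (log2 -1.30, SE 0.08, adjusted p = 2.67e-08) and 2.66-fold lower in PC (log2 -1.41, SE 0.08, adjusted p = 1.32e-08), without overlap. In RC 2 of the 3 libraries were above every CC library, and the difference did not pass the test (log2 0.11, 95% interval -0.05 to 0.28, adjusted p = 0.271).

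DHODH (chr16:72008588-72027664, plus strand, 9 exons) read 35.7, 33.8 and 33.1 CPM in the control libraries, 15.7, 18.0 and 15.8 in the treated libraries, 16.5, 17.3 and 18.0 in the persister and 33.8, 30.8 and 30.8 in the recovered libraries. The TC and PC libraries stood together well below CC, and 2 of the 3 RC libraries were below every CC library. DHODH was 2.07-fold lower in TC (log2 -1.05, SE 0.08, adjusted p = 1.6e-07) and 1.98-fold lower in PC (log2 -0.98, SE 0.08, adjusted p = 2.69e-07). In RC its difference did not pass the test (log2 -0.10, 95% interval -0.27 to 0.06, adjusted p = 0.309).

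UMPS, which completes the pathway to uridine monophosphate (chr3:124730433-124749273, plus strand, 6 exons), was the member that differed least under MAPKi. It read 69.2, 66.0 and 86.3 CPM in the control libraries, 64.0, 63.3 and 61.2 in the treated libraries, 60.7, 66.2 and 66.1 in the persister and 80.6, 80.3 and 83.1 in the recovered libraries. CC replicate 3 was the highest library of all, and PC overlapped CC. UMPS was 1.18-fold lower in TC (log2 -0.23, SE 0.09, adjusted p = 0.032), and the call was lost without that library (log2 -0.10, adjusted p = 0.115) or with only the 2 groups compared in the fit (adjusted p = 0.116). In PC it did not pass (log2 -0.20, 95% interval -0.39 to -0.01, adjusted p = 0.0606), nor in RC (log2 0.14, 95% interval -0.05 to 0.33, adjusted p = 0.23). UMPS was called in RC without CC replicate 3 (log2 0.27, adjusted p = 0.00243), and in PC without CC replicate 1 (adjusted p = 0.0402) or CC replicate 2 (adjusted p = 0.0114).

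CTPS1, the CTP synthase (chr1:40979300-41012565, plus strand, 19 exons), read 52.1, 61.1 and 67.2 CPM in the control libraries, 33.2, 35.5 and 38.2 in the treated libraries, 47.3, 46.2 and 52.0 in the persister and 99.0, 94.6 and 89.9 in the recovered libraries. No group overlapped another, although the highest PC library was within 1 CPM of the lowest CC library. CTPS1 was 1.69-fold lower in TC (log2 -0.75, SE 0.09, adjusted p = 1.43e-05), 1.24-fold lower in PC (log2 -0.31, SE 0.09, adjusted p = 0.00971) and 1.57-fold higher in RC (log2 0.65, SE 0.09, adjusted p = 0.000249). The call in PC was lost with only the 2 groups compared in the fit (log2 -0.29, adjusted p = 0.052).

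TYMS (chr18:657653-673578, plus strand, 7 exons) had the largest difference of the 10 members in TC and the lowest CPM of the 10 in every group. It read 9.26, 15.98 and 12.6 CPM in the control libraries, 1.94, 2.07 and 1.77 in the treated libraries (75, 81 and 95 counts), 8.58, 8.37 and 8.12 in the persister and 23.5, 22.4 and 23.2 in the recovered libraries. The TC libraries were far below all others, the PC libraries just below the lowest CC library, and the RC libraries above every CC library. TYMS was 6.54-fold lower in TC (log2 -2.71, SE 0.17, adjusted p = 3.78e-08), 1.51-fold lower in PC (log2 -0.59, SE 0.16, adjusted p = 0.00467) and 1.83-fold higher in RC (log2 0.87, SE 0.15, adjusted p = 0.00107). The value in PC depended on CC replicate 2, without which it was -0.39 on the log2 scale (adjusted p = 0.0166).

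TYMS counts carry a further limit, since ENOSF1 runs in the opposite direction over 967 bases, or 60%, of its transcript, and the antisense RNA TYMSOS over 106 bases. Whether strand was used in counting is not given in the sources used here, so reads of these genes cannot be told apart with certainty. ENOSF1, a gene of the enolase superfamily, read 28.5 ± 1.18 CPM in CC, 19.0 ± 0.17 in TC, 19.5 ± 0.81 in PC and 31.0 ± 1.60 in RC (SD, n = 3). It was 1.498-fold lower in TC (log2 -0.58, SE 0.07, adjusted p = 8.92e-06) and did not pass the test between PC and TC (log2 0.03, 95% interval -0.12 to 0.18, adjusted p = 0.769), where TYMS was called.

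Against this background the member counts were as follows. In TC all 10 members were called lower, where 34.7% of all genes tested were called lower and 33.2% higher. The members' libraries did not overlap with CC for any of the 10, and 34.7% of all genes tested lay wholly below. Beyond 1.5-fold, by edgeR's test against that fold, 9 of 10 were lower, UMPS being the exception, where 19.3% of all genes were. CTPS1 was the weakest of these calls (adjusted p = 0.0372), lost with DESeq2 (adjusted p = 0.35) and without CC replicate 3 (adjusted p = 0.162), among other alternatives. The median log2 difference was -1.34 over the 10 members, -1.58 over the purine enzymes and -1.05 over the pyrimidine enzymes, beside -0.02 over all genes.

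In PC 9 of 10 members were called lower, against 35.9% of all genes lower and 33.2% higher. UMPS was again the exception. The same number lay wholly below CC, against 36.1% of all genes. Beyond 1.5-fold 7 were lower, against 19.9% of all genes, UMPS, CTPS1 and TYMS being the ones that were not. TYMS passed the 1.5-fold test when CC replicate 1 was left out (log2 -0.78, adjusted p = 0.0493). The median was -1.40 over the purine and -0.59 over the pyrimidine enzymes, beside -0.04 over all genes. In RC 3 members, PAICS, CTPS1 and TYMS, were called higher, against 18.2% of all genes, and none was called lower by edgeR's quasi-likelihood test (also 0 by DESeq2 and 0 at an unadjusted p under 0.05), against 19.1%. None passed the 1.5-fold test in RC by edgeR, where 1.35% of all genes were higher. At an unadjusted p under 0.05 that count was 1, by DESeq2 it was 0, and without CC replicate 2 it was also 1, TYMS. The comparisons with CC share the same 3 control libraries, so they are not independent of one another.

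**Figure D2:**
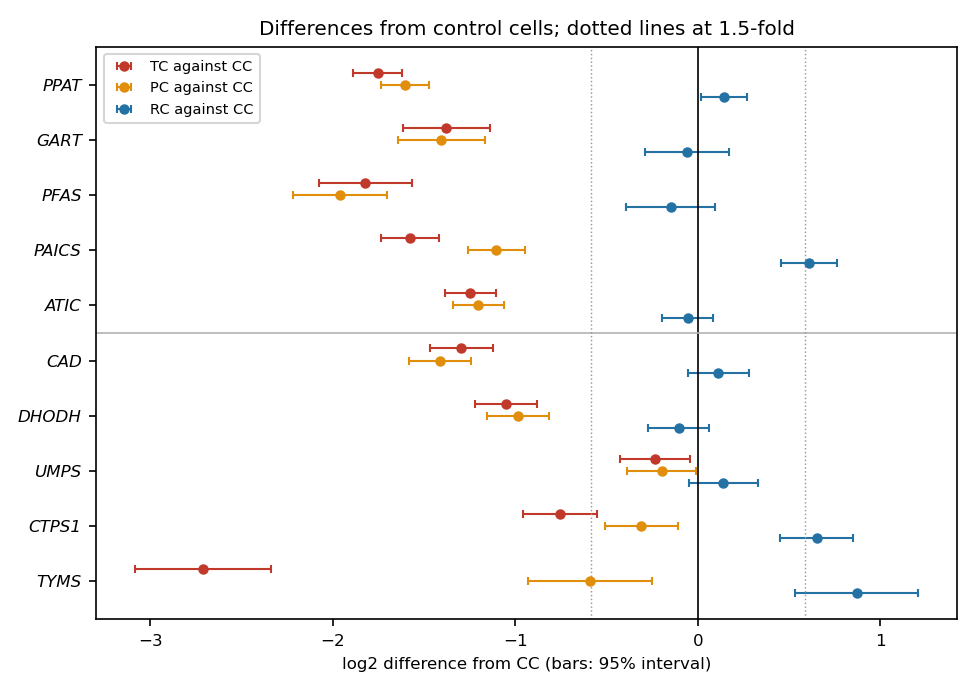
Log2 differences of TC, PC and RC from CC (horizontal axis) for each member, purine enzymes above the grey line and pyrimidine enzymes below it; points are edgeR estimates, bars 95% intervals, and dotted lines mark 1.5-fold. The TC and PC points of the purine enzymes lie between -1.96 and -1.11, those of UMPS lie nearest to 0, and the TYMS points run from -2.71 in TC to 0.87 in RC.

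The 2 days without drug separated the members into those that moved from the treated level and those for which no difference was called. TYMS was 4.34-fold higher in PC than in TC (log2 2.12, SE 0.17, adjusted p = 5.66e-06), PAICS 1.39-fold higher (log2 0.47, SE 0.07, adjusted p = 0.000528) and CTPS1 1.36-fold higher (log2 0.44, SE 0.09, adjusted p = 0.00432). These 3 of 10 stand against 12.2% of all genes called higher, and TYMS alone passed the 1.5-fold test, against 2.33%. For PPAT the PC libraries lay above the TC libraries without passing the test (log2 0.15, 95% interval 0.02 to 0.28, adjusted p = 0.0959), and it passed without CC replicate 3 (adjusted p = 0.0405). For CAD the PC libraries lay below those of TC (log2 -0.12, 95% interval -0.29 to 0.05, adjusted p = 0.311). The log2 differences of the other 5 were 0.07 for DHODH, 0.03 for UMPS, -0.03 for GART, -0.14 for PFAS and 0.04 for ATIC, with 95% intervals that together ran from -0.39 to 0.24. An interval of that width does not show that the levels were alike.

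Between 2 and 9 days without drug all 10 members rose, against 35.7% of all genes called higher, and 9 did so beyond 1.5-fold, against 20.2%. PFAS (3.51-fold, log2 1.81, SE 0.12, adjusted p = 4.19e-08), PPAT (3.36-fold, log2 1.75, SE 0.06, adjusted p = 3.32e-10) and PAICS (3.28-fold, log2 1.72, SE 0.07, adjusted p = 1.32e-09) had the largest estimates, whose order was not tested. CAD rose 2.88-fold, TYMS 2.75-fold, GART 2.54-fold, ATIC 2.21-fold, CTPS1 1.95-fold and DHODH 1.84-fold. UMPS rose least (1.26-fold, log2 0.34, SE 0.09, adjusted p = 0.00416) and was the member that did not pass the 1.5-fold test. The summed level of the 10 members was 1307 to 1470 CPM in CC and 537 to 549 in TC. It was 583 to 650 in PC and 1605 to 1674 in RC, with no overlap between groups. PAICS weighs most in that sum, at 412 to 455 CPM in CC and 653 to 688 in RC. With PAICS left out, the summed levels of RC lay within the range of CC, and those of TC and PC overlapped. Of the 10 members, 7 were not called between RC and CC, beside 9974 of the 15916 genes tested. Between PC and TC 7 members were not called, beside 11980 of the 15916. These counts do not set the members apart from all genes.

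Ratios of counts within a library do not depend on its total, and they set members side by side. PAICS over PPAT, the divergent pair, was 5.39, 6.06 and 5.53 in control, 6.33, 6.24 and 6.62 in treated, 7.40, 8.41 and 8.21 in persister and 7.83, 7.68 and 7.94 in recovered cells. All libraries of the drug-exposed groups were above those of CC. CAD over UMPS was 2.197, 1.91 and 1.82 in control, 0.97, 0.90 and 0.95 in treated, 0.90, 0.82 and 0.82 in persister and 1.95, 2.00 and 1.83 in recovered cells. Reads of CAD, which starts the pathway, outnumbered those of UMPS in CC and RC and were fewer in TC and PC. CTPS1 over UMPS was 0.75 to 0.93 in CC, 0.52 to 0.63 in TC, 0.70 to 0.79 in PC and 1.082 to 1.23 in RC. These ratios were not tested and are given as a description. TYMS over its neighbour ENOSF1 was 0.33, 0.58 and 0.42 in control, 0.10, 0.11 and 0.09 in treated, 0.46, 0.41 and 0.41 in persister and 0.79, 0.74 and 0.71 in recovered cells. The TC libraries were below and the RC libraries above all others, whereas PC and CC overlapped.

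**Figure D3:**
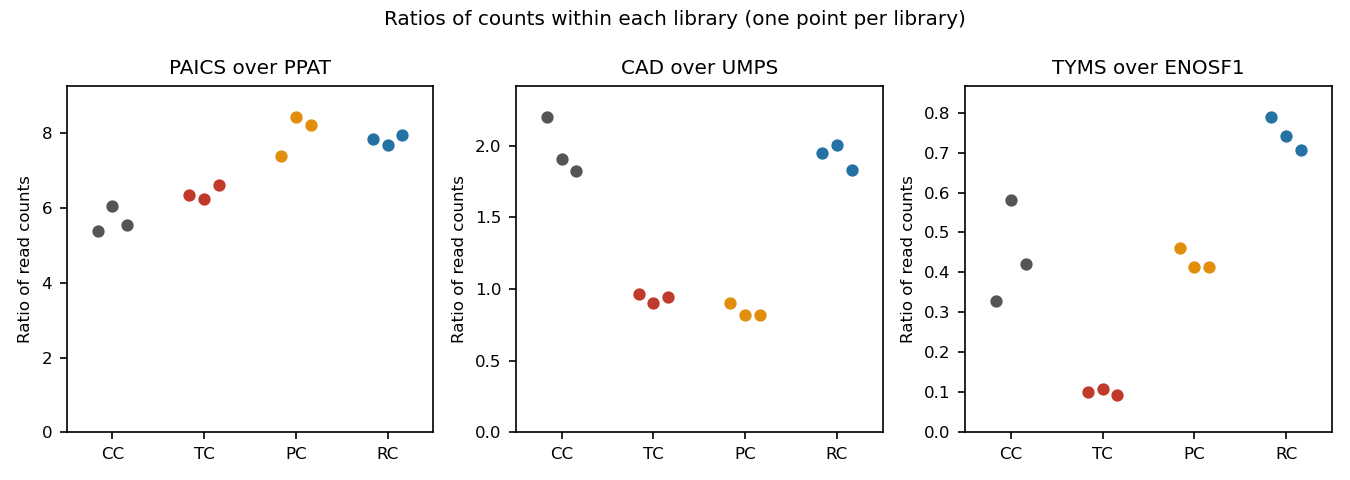
Ratios of read counts within each library (vertical axes, each from 0) for PAICS over PPAT, CAD over UMPS and TYMS over ENOSF1 in the 4 groups; 1 point is 1 library. PAICS over PPAT is lowest in CC, CAD over UMPS is below 1 in TC and PC alone, and TYMS over ENOSF1 is near 0.1 in TC.

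Levels can be compared between genes only per length, here as CPM per kilobase of the MANE transcript. In CC ATIC was the highest at 114 ± 2.18 (SD, n = 3), followed by PAICS at 69.1 ± 3.83 and GART at 57.7 ± 10.2. PAICS and GART overlapped in their ranges, as did CTPS1 (21.2 ± 2.66), PPAT (21.1 ± 1.00), CAD (19.9 ± 2.32) and PFAS (19.9 ± 3.62), so the order within these sets is not resolved. UMPS (11.1 ± 1.64) and DHODH (7.32 ± 0.29) stood below them. In TC ATIC was still highest at 47.9 ± 1.78, GART at 22.2 ± 0.78 and PAICS at 23.2 ± 1.39 still overlapped, and UMPS at 9.44 ± 0.22 stood above PPAT (6.26 ± 0.18), PFAS (5.63 ± 0.46) and CAD (8.11 ± 0.35), each of which it was below in CC. In RC PAICS reached 105 ± 2.77 beside 109 ± 2.88 for ATIC, with overlapping ranges. TYMS is left out of this order because of the overlap with ENOSF1. The lengths are of GENCODE transcripts and may differ from those expressed in A375 cells.

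The enzymes that feed or continue these pathways were described by lists, each given by its counts and its median. Over all genes tested 34.7% were lower and 33.2% higher in TC (median log2 -0.02), and 35.9% and 33.2% in PC. In RC 19.1% were lower and 18.2% higher. PRPP, the substrate of PPAT, is supplied by synthetases and their associated proteins: 3 of 4 were lower and 1 higher in TC (median log2 -0.32). PRPS2 was lower (log2 -1.48, SE 0.06, adjusted p = 1.41e-09) and PRPS1, the other form of the synthetase, higher (log2 1.11, SE 0.13, adjusted p = 1.24e-05). Of 8 genes of the remaining purine steps 5 were lower and 2 higher in TC (median log2 -0.62), GMPS, which makes GMP, having the largest fall (log2 -1.56, SE 0.06, adjusted p = 4.09e-10) and ADSS1, an adenylosuccinate synthase, the largest rise (log2 1.52, SE 0.13, adjusted p = 7.29e-07). ADSL, the enzyme of this list that also acts in de novo ring building between PAICS and ATIC, was singled out after its values were seen. It read 233 ± 7.23 CPM in CC, 97.4 ± 3.37 in TC, 99.1 ± 2.58 in PC and 180 ± 6.55 in RC (SD, n = 3). It was lower than CC in TC (log2 -1.26, adjusted p = 1.84e-09) and in PC (log2 -1.23, adjusted p = 2.25e-09) and was also called lower in RC (log2 -0.37, adjusted p = 0.000327).

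Of 8 genes of further pyrimidine steps 6 were lower and 1 higher in TC (median log2 -0.84). CTPS2, the second CTP synthase, was lower in TC (log2 -0.99, SE 0.10, adjusted p = 1.68e-06), and CMPK1, a UMP and CMP kinase, was higher (log2 0.61, SE 0.07, adjusted p = 5.68e-06). CTPS2 fell between TC and PC (log2 -0.55, adjusted p = 0.00152) and was below CC in RC (log2 -0.65, adjusted p = 0.000329), in each case in the opposite direction to CTPS1. Of 6 genes of ribonucleotide reductase and its reducing partners 4 were lower and none higher in TC (median log2 -0.86). RRM2, its regulated small subunit, was lower in TC (log2 -2.59, SE 0.13, adjusted p = 5.41e-09), higher in PC than in TC (log2 2.48, adjusted p = 2.51e-07) and above CC in RC (log2 1.18, adjusted p = 4.25e-05). In PC its difference from CC was not called (log2 -0.11, adjusted p = 0.44). RRM2B, the other small subunit, had the highest value in the list in TC without passing the test (log2 0.15, adjusted p = 0.0807).

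Of 15 salvage genes 6 were lower and 3 higher in TC, against 34.7% and 33.2% of all genes tested, with a median log2 difference of 0.03. That median is the value of TYMP, which like PNP and CDA stayed below 1 CPM in every library. TK1, the cytosolic thymidine kinase, had the largest fall in TC (log2 -3.16, SE 0.15, adjusted p = 3.06e-09) and was higher in PC than in TC (log2 2.10, adjusted p = 2.07e-06), whereas UPRT had the largest rise (log2 0.61, SE 0.08, adjusted p = 4.42e-05). GART, ATIC and TYMS use one-carbon units carried by folate. Of 11 genes of folate metabolism, not all of which supply such units, 7 were lower and 2 higher in TC. In PC 8 were lower and 1 higher, and the medians were -1.84 in TC and -1.86 in PC. ALDH1L2, a mitochondrial folate dehydrogenase, had the largest fall (log2 -3.76, SE 0.40, adjusted p = 4.06e-06) and was still lower in RC (log2 -2.21). SLC19A1, the reduced folate carrier, had the largest rise (log2 1.37, SE 0.42, adjusted p = 0.012).

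Cells that replicate their DNA draw on nucleotides, so genes of S phase are given beside the members. The list holds 37 S phase genes and leaves out TYMS, RRM1 and RRM2. In TC 34 were lower and none higher (median log2 -1.88), against 34.7% of all genes lower. In PC 33 were lower and 1 higher (-1.33), against 35.9% lower. In RC 33 were higher and none lower (0.62), against 18.2% higher. Between TC and PC 29 of the 37 were higher (median 0.65), against 12.2% of all genes (median 0.002). Of the 10 members 3 were higher there (median 0.06), and in RC the members' median was 0.13. The summed level of the S phase genes was 1869 to 2347 CPM in CC, 613 to 658 in TC, 847 to 903 in PC and 3022 to 3196 in RC. The order of groups was the same for the summed members, a sum in which PAICS weighs most. With PAICS left out of it, RC lay within the range of CC and PC overlapped TC. The part of the S phase genes in the members' differences was not tested.

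**Figure D4:**
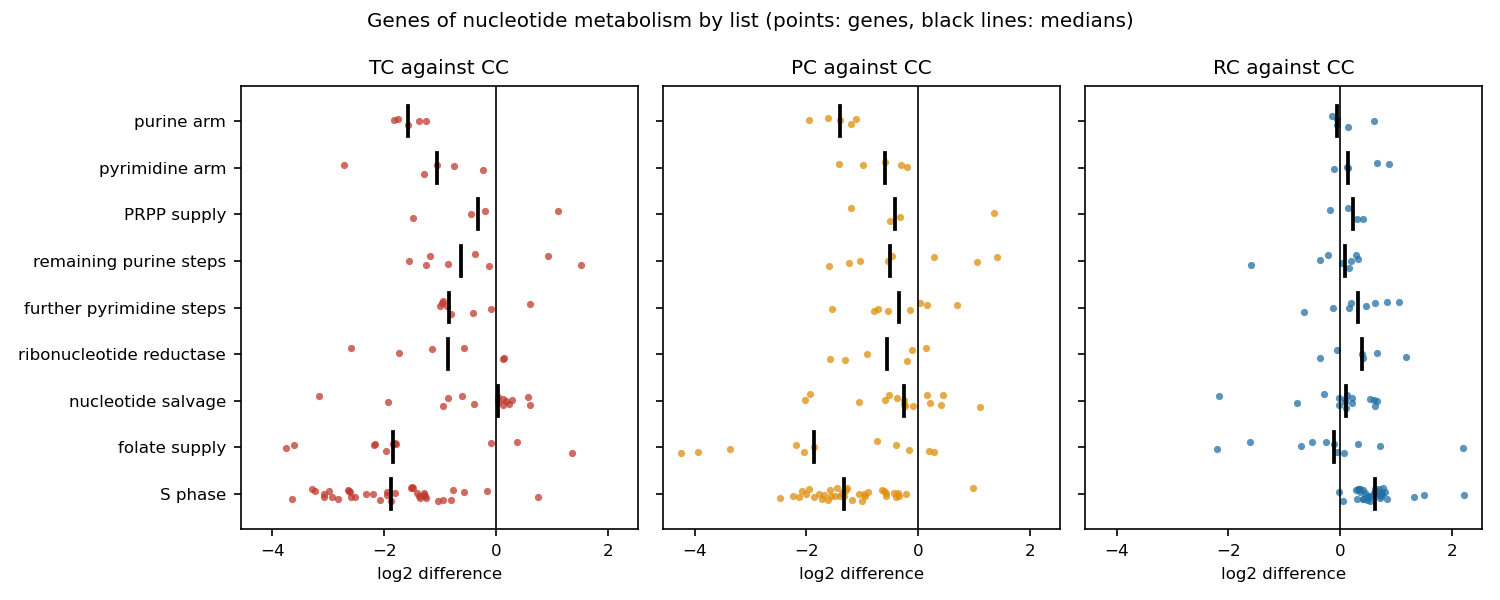
Log2 differences (horizontal axes) of TC, PC and RC from CC for the purine and pyrimidine enzymes and for 7 lists of related genes; each point is a gene and each black line the median of its list. In TC the medians of the folate and S phase lists are -1.84 and -1.88 and that of salvage is 0.03, and in RC the S phase median is 0.62.

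The members were near the middle of the tested genes in acidic residues and spread widely in codon use. Among 12654 tested genes with a MANE coding sequence the median share of aspartate and glutamate was 11.9% of residues, and over the 10 members it was 11.7%, from 10.9% in CAD (2225 residues) and DHODH to 13.4% in CTPS1. Codons ending in A or T made up 41.2% of codons at the median gene and 51.6% at the median of the members, which ranged from 32% in PFAS to 66.5% in PPAT. PPAT, PAICS (63.8%) and GART (61.5%) lay at the 94.6th, 89.6th and 85.4th percentiles. PFAS, CAD (34.3%), DHODH (35.2%) and TYMS (37.4%) lay below the median gene.

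Likeness was measured as the root mean square difference from the members' median log2 profile over TC, PC and RC (-1.34, -1.15 and 0.13) among genes with a mean count of at least 100. The 5 genes nearest to it, members left out, were PSMG1 (0.04), TARS2 (0.05), NPM1 (0.05), EXOSC2 (0.05) and PPP2R3B_3 (0.05), the last a numbered copy in the table. Of the members ATIC (0.12), CAD (0.15) and GART (0.18) lay nearest and TYMS (0.96) and UMPS (0.84) farthest.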

How the data were processed

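The deposited file holds counts: whole numbers of reads per gene, raw, for 12 libraries. The authors trimmed paired reads from an Illumina NovaSeq instrument with fastp 0.20.1, aligned them to GRCh38.p13 with HISAT2 2.2.1 and counted reads on exons of the NCBI annotation with HTSeq 0.13.5. Strand setting and the handling of reads with several alignments are not given in the sources used here. The table lists 5088 numbered copies of gene symbols.

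Groups came from the treatment labels. Genes with a mean scaled count of at least 10 were kept (15916). One model of all 12 libraries (8 residual degrees of freedom) was fitted with edgeR 4.0.16 in R 4.3.3, with TMM factors of 0.965 to 1.02 and a common coefficient of variation of 0.182, and 5 comparisons were tested by quasi-likelihood at an adjusted p below 0.05 and by glmTreat at 1.5-fold. The fit was tested on simulated data. The members and lists were chosen with earlier results of these data known. All 10 members are named. In each of 6 lists of related genes, S phase not among them, the largest rise and fall in TC are named, with overlapping neighbours and the 5 genes of nearest profile. The 18 alternatives were DESeq2 1.42.0 (test, size factors), library totals, a filter on a summed count of at least 2, the replicate block, only the 2 groups compared and each library left out. Gene coordinates and transcript lengths are from GENCODE v44 (GRCh38), not the counting annotation. Promoters are from RefSeq (GRCh38.p14), with all 10 members matched. The floor of 3 counts covers counting error only.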

Additional observations from a re-analysis of the deposited data

How the results depend on the processing

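Over 18 alternatives, 881 of 900 log2 differences of members kept their direction and their side of the threshold, 8 lost and 7 gained a call, and 4 changed sign. The sign changes were of uncalled values, in fits that left out 1 library: GART in RC against CC (-0.17 to 0.089), GART in PC against TC (-0.073 to 0.036) and ATIC in PC against TC (-0.0009 to 0.11). The number of members called in RC was 3 and ran from 3 to 5 with 1 library left out (5 without CC replicate 3), and the number beyond 1.5-fold in RC ran from 0 to 1. UMPS lost its TC call in 7 of 18 alternatives. The count of all genes beyond 1.5-fold in RC was 616 and ran from 341 to 901. Other scalings moved the all-gene median by at most 0.03 on the log2 scale. TYMS, at 75 to 95 counts in TC, rests on the fewest reads.

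With the replicate number as a block, the members called and beyond 1.5-fold were 10 and 9 in TC, 9 and 7 in PC, 3 and 0 in RC, 3 and 1 between TC and PC, and 10 and 9 between PC and RC, the same as without it. Only 2 of 18 correlations between same-numbered libraries of different groups exceeded 0.1 (-0.04 to 0.14), but 8 of 12 libraries correlated best with their own number. Same-numbered TC and PC libraries correlated at 0.14, 0.07 and 0.11, and differently numbered ones at -0.11 to 0.003. Same-numbered pairs with RC ran from -0.04 to 0.01. The column names of the counts also end in the same numbers in every group, without saying what these stand for. The numbers may therefore mark pairs of some groups or matched sets of all. The main fit did not take them as pairs because the study's sequencing methods name no block.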
